A study of Mus musculus with 9 samples.

Results

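The IFIT, Mx and ISG15 antiviral effectors are 10 interferon-stimulated genes chosen by name: Ifit1, Ifit2, Ifit3, Ifit3b, Mx1, Mx2, Isg15, Usp18, Rsad2 and Herc6. All 10 were found among the 49585 genes counted in the series, and all 10 passed the filter on low counts. RNA was sequenced from 9 spontaneous mouse breast tumours, of which 3 received AAV-Control and 6 received AAV-∆mut-p53, the group the series describes as deleted for mutant p53. AAV is adeno-associated virus, used here as a delivery vector, and both groups received it on days 0, 3 and 8; tumours were taken once an animal met criteria for euthanasia. Every mouse, controls included, carried K14-Cre, which expresses Cre recombinase from a keratin promoter of basal epithelium. The mice also carried Trp53wm-R172H/fl, a mutant and a floxed allele of the gene for p53, together with a Rosa26LSL CAS9-P2A-EGFP/+ allele that makes Cas9 after Cre has acted. All 9 tumours received AAV, so an effect of the vector itself cannot be told apart from their shared background. The labels do not say that each tumour came from a separate animal, and p-values measure the spread between these samples. AAV-∆mut-p53 4 and 5 share a number in their titles, and the labels do not say what it stands for.

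Interferons are cytokines released when cells sense viral or displaced nucleic acid. Type I interferons bind the IFNAR receptor, whose kinases JAK1 and TYK2 activate STAT proteins; with IRF9 these form the factor ISGF3, which binds a response element near the start of interferon-stimulated genes. In breast tumours the same genes can be expressed by the tumour cells and by infiltrating immune cells, and in whole tissue fewer cells of a type and less RNA per cell cannot be told apart.

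All 10 genes had a higher mean in the AAV-∆mut-p53 tumours, against 55.6% of the 19606 genes tested, with a median log2 fold change of 2.002 for the 10 genes and 0.09 for all genes. None of the 10 passed a false discovery rate (FDR) of 0.05 in edgeR's quasi-likelihood test, and the percentage of all genes that did was 0; the smallest FDR of any gene was 0.677. At an unadjusted p under 0.05 there were 5 of the 10, Ifit1, Ifit3b, Mx2, Isg15 and Herc6, all higher; among all genes 7.07% reached that level and 3.82% did so as higher. No gene of the 10 reached that p as lower, which 3.26% of all genes did. DESeq2 put 0 of the 10 past the FDR threshold, against 104 of all genes, and 8 at an unadjusted p under 0.05, against 10.2% of all genes. Limma voom with sample quality weights put 0 of the 10 at either level, against 10.4% of all genes at that p, and its median log2 fold change was 1.03 for the 10 genes and -0.02 for all genes. The 2 groups overlapped for all 10 genes, whereas 1.47% of all genes had every AAV-∆mut-p53 tumour above every control.

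Most of the 10 genes were highest in the same tumours. For 9 of the 10 genes the 4 highest values were those of AAV-∆mut-p53 2, 3, 4 and 6, which held for 2.82% of all tested genes; this count was made after the values had been seen. The exception was Ifit2, for which AAV-Control 1 was above AAV-∆mut-p53 6. Within these 4 tumours the order changed from gene to gene. AAV-∆mut-p53 1 was below every control for 7 genes and AAV-∆mut-p53 5 for 8. The share of all genes with either tumour below every control was not computed, so these counts have no background beside them. Summed over the 10 genes, the level in CPM (counts scaled to a common library size) was 184, 105 and 122 in AAV-Control 1, 2 and 3. It was 60.6, 569, 605, 623, 76.4 and 542 in AAV-∆mut-p53 1 to 6, so tumours 1 and 5 were below all 3 controls and the other four were above them.

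**Figure D1:**
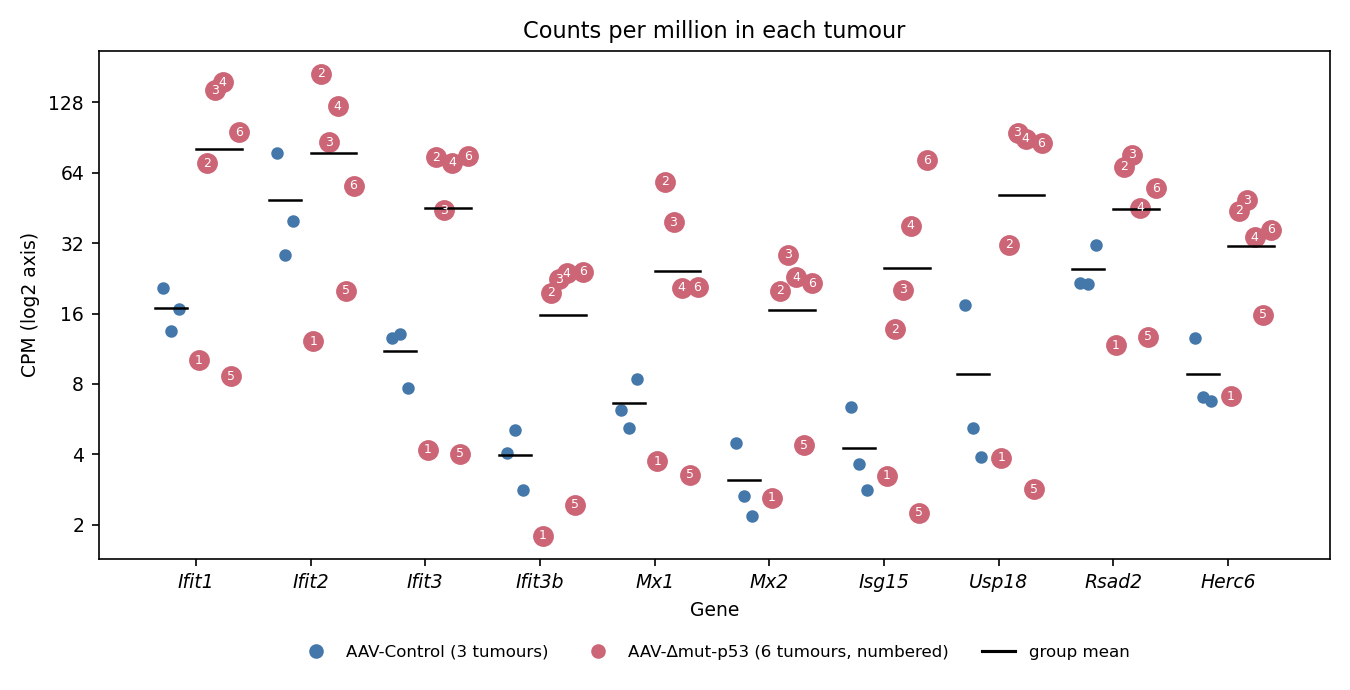
Level of each of the 10 genes in each tumour, in CPM on a log axis, with 3 AAV-Control and 6 AAV-∆mut-p53 tumours. AAV-∆mut-p53 1 sits below every control for 7 genes and AAV-∆mut-p53 5 for 8, a count whose share over all genes was not computed. AAV-∆mut-p53 2, 3, 4 and 6 hold the 4 highest values for 9 of 10.

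The IFIT1 protein binds viral RNA that lacks the cap modifications of host messages and stops its translation. Ifit1 (ENSMUSG00000034459.8, chr19:34640871-34650009, plus strand) was at 20.5, 13.4 and 16.8 CPM in the controls. In AAV-∆mut-p53 1 to 6 it was at 10.1, 70.1, 144, 155, 8.63 and 95.4 CPM. Tumours 1 and 5 were below every control and the other four were at least as high as 70.1 CPM. The group means were 16.9 ± 3.54 (SD, n = 3) and 80.6 ± 63.4 (SD, n = 6), a log2 fold change of 2.25 (SE 0.90; edgeR FDR 0.677).

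Ifit2 (ENSMUSG00000045932.12, chr19:34550694-34576419, plus strand) did not have the same 4 highest tumours. It was at 77.8, 28.4 and 39.9 CPM in the controls, and at 12.2, 169, 86.1, 123, 20.05 and 56.2 CPM in AAV-∆mut-p53 1 to 6. AAV-Control 1 was above 3 of the 6 AAV-∆mut-p53 tumours. The log2 fold change was 0.68 (SE 0.75; edgeR FDR 0.825), the smallest of the 10, and it was 0.30 without AAV-∆mut-p53 2, 1.18 without AAV-Control 1 and -0.34 in limma voom with sample quality weights.

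Ifit3 and Ifit3b are neighbouring copies on chromosome 19. Ifit3 (ENSMUSG00000074896.3, chr19:34583531-34588731, plus strand) was at 12.5, 13.1 and 7.72 CPM in the controls and at 4.18, 74.3, 44.3, 70.4, 4.03 and 75.1 CPM in AAV-∆mut-p53 1 to 6. Ifit3b (ENSMUSG00000062488.9, chr19:34607970-34613401, plus strand) was at 4.04, 5.10 and 2.81 CPM and at 1.80, 19.6, 22.5, 23.8, 2.43 and 24.1 CPM. Both had tumours 1 and 5 below every control and the other four above. The log2 fold change was 2.03 (SE 0.95) for Ifit3 and 1.98 (SE 0.86) for Ifit3b, each with an edgeR FDR of 0.677. Their transcripts are 98.0% identical over 1697 aligned bases with an identical run of 329 bases, so reads could have been split between them and the separate values are uncertain.

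Mx1 and Mx2 encode dynamin-like GTPases that trap viral ribonucleoproteins, the mouse MX1 protein in the nucleus and MX2 in the cytoplasm. Mx1 (ENSMUSG00000000386.14, chr16:97447035-97462907, minus strand) was at 6.22, 5.20 and 8.40 CPM in the controls and at 3.73, 58.5, 39.2, 20.6, 3.27 and 20.7 CPM in AAV-∆mut-p53 1 to 6. Mx2 (ENSMUSG00000023341.14, chr16:97535308-97560900, plus strand), which the annotation lists as a polymorphic pseudogene, was at 4.46, 2.67 and 2.18 CPM and at 2.61, 20.005, 28.5, 22.8, 4.38 and 21.6 CPM. Mx1 was highest in AAV-∆mut-p53 2 and Mx2 in AAV-∆mut-p53 3, and for Mx2 tumours 1 and 5 were within the range of the controls. The log2 fold change was 1.88 (SE 0.88) for Mx1 and 2.42 (SE 0.79) for Mx2, with edgeR FDR 0.677 for both. The 2 transcripts are 84.3% identical over 1903 aligned bases, with an identical run of 140 bases.

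ISG15 is a ubiquitin-like protein that is joined to other proteins during the interferon response. Isg15 (ENSMUSG00000035692.6, chr4:156199424-156200818, minus strand) was at 6.36, 3.64 and 2.81 CPM in the controls and at 3.24, 13.7, 20.2, 38.0, 2.26 and 72.3 CPM in AAV-∆mut-p53 1 to 6. AAV-∆mut-p53 6 was highest by a wide margin, and without it the log2 fold change went from 2.55 (SE 1.05; edgeR FDR 0.677) to 1.86. Herc6 encodes the main ligase that joins ISG15 to its targets in mouse cells. Herc6 (ENSMUSG00000029798.11, chr6:57581000-57664632, plus strand) was at 12.6, 7.004 and 6.77 CPM in the controls and at 7.10, 44.0, 48.9, 33.8, 15.8 and 36.5 CPM in AAV-∆mut-p53 1 to 6. It was the only one of the 10 for which 5 AAV-∆mut-p53 tumours were above every control, and AAV-∆mut-p53 1 was within the control range. The log2 fold change was 1.82 (SE 0.60; edgeR FDR 0.677), and its exact two-sided permutation p on log2(CPM + 1) was 0.0714, the smallest of the 10 genes, where 84 assignments allow a p no smaller than 0.0119.

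USP18 removes ISG15 from proteins and, bound to the interferon receptor, damps its signalling. Usp18 (ENSMUSG00000030107.10, chr6:121245906-121270917, plus strand) was at 17.4, 5.20 and 3.88 CPM in the controls and at 3.87, 31.5, 95.002, 89.3, 2.83 and 85.3 CPM in AAV-∆mut-p53 1 to 6. It had the widest range of the 10, the highest tumour being 33.5 times the lowest. AAV-Control 1 was above the other two controls, and without it the log2 fold change went from 2.54 (SE 1.15; edgeR FDR 0.677) to 3.49. An antisense RNA gene, Gm44148, overlaps Usp18 and held 50 counts over the 9 tumours against 7221 for Usp18.

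RSAD2, also called viperin, makes a modified nucleotide that ends the copying of viral RNA. Rsad2 (ENSMUSG00000020641.15, chr12:26442746-26456452, minus strand) was at 21.7, 21.4 and 31.3 CPM in the controls and at 11.7, 68.0, 76.3, 45.2, 12.7 and 54.9 CPM in AAV-∆mut-p53 1 to 6. Tumours 1 and 5 were below every control and the other four above. The range was the narrowest of the 10, the highest tumour being 6.502 times the lowest, and the log2 fold change was 0.85 (SE 0.60; edgeR FDR 0.725).

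**Figure D2:**
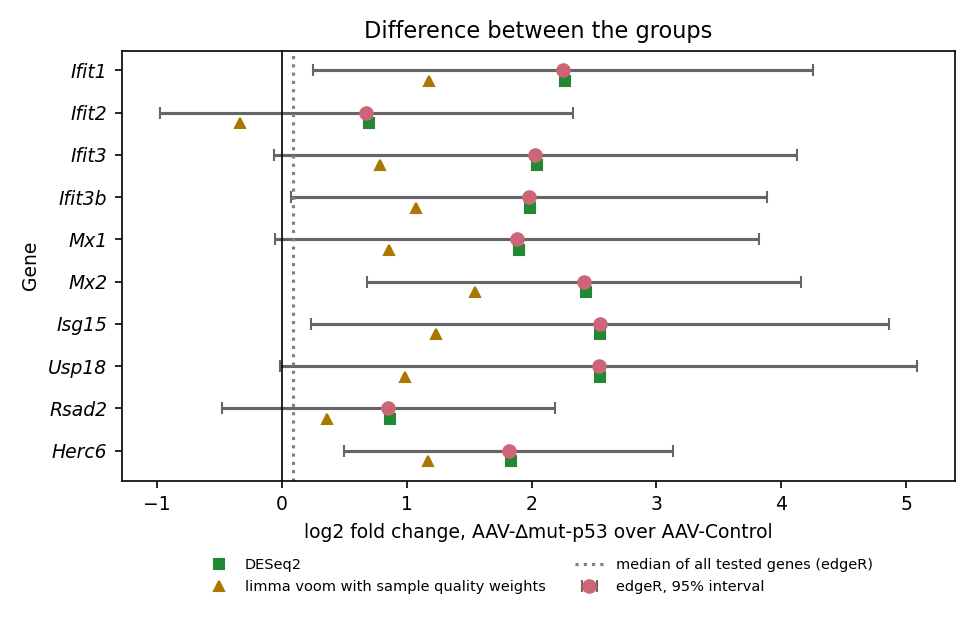
Log2 fold change (AAV-∆mut-p53 over AAV-Control, 6 against 3 tumours) of each of the 10 genes with its 95% interval from edgeR, beside the estimates of DESeq2 (squares) and limma voom with sample quality weights (triangles). All 10 edgeR estimates are above 0, from 0.68 for Ifit2 to 2.55 for Isg15, and none had an FDR under 0.677.

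Levels between genes were compared per kilobase of merged exons, the union of all annotated exons of a gene. This length was 3614 bases for Mx2, whose aligned transcript has 2417 bases, so the order of the genes can depend on the length used. In the controls Ifit2 had the highest mean, 12.4 ± 6.58 CPM per kilobase (SD, n = 3), by less than its own SD, while Ifit3, Ifit1, Rsad2 and Isg15 had means between 5.65 and 6.37 and did not differ beyond their spread. Usp18 followed at 3.17 ± 2.68 and Ifit3b at 1.99 ± 0.57, and Mx2 had the lowest mean, 0.86 ± 0.33 CPM per kilobase, next to Herc6 at 0.95 ± 0.36 and within the spread (SD, n = 3 each). In the AAV-∆mut-p53 tumours Isg15 had the highest mean, 33.0 ± 35.2, next to Ifit1 at 30.3 ± 23.9 and Ifit3 at 26.0 ± 19.4 CPM per kilobase (SD, n = 6 each). The spread of each of these exceeded the gaps between them, so their order is not resolved. Herc6, the ligase, had the lowest mean there, 3.34 ± 1.76 CPM per kilobase (SD, n = 6), and did not differ from Mx2 at 4.605 ± 2.93 beyond the spread.

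The proportions between the genes also differed from tumour to tumour, in ratios chosen after the values had been seen. Ifit1 was 0.264 times Ifit2 in the tumour with the lowest ratio of CPM and 1.70 times it in the tumour with the highest. Ifit1 over Isg15 ran from 1.32 in AAV-∆mut-p53 6 to 7.11 in AAV-∆mut-p53 3. Mx1 over Mx2 ran from 0.747 to 3.85, and Ifit3 over Ifit3b from 1.65 to 3.79. Ifit1 and Isg15 thus stood in different proportions in 2 tumours that were both above every control.

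**Figure D3:**
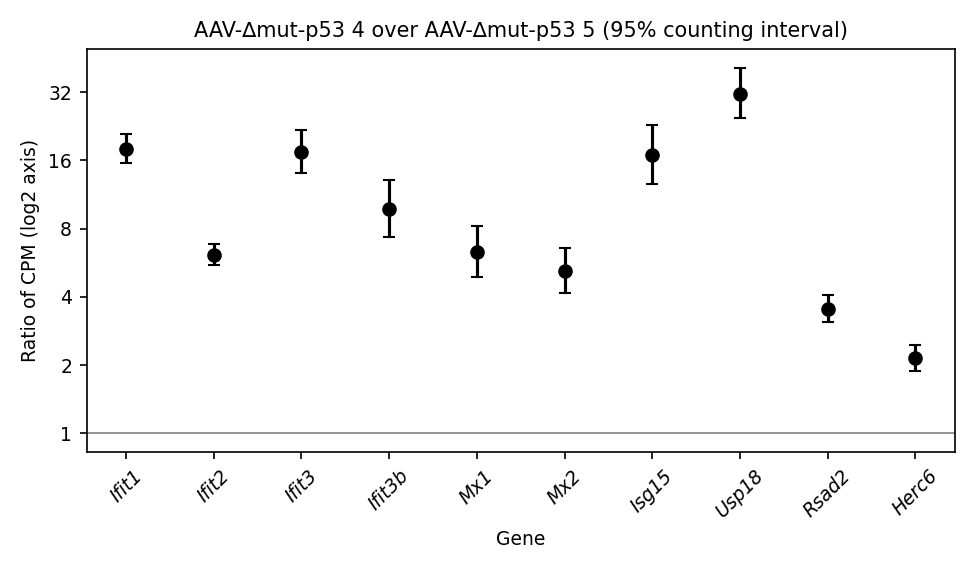
AAV-∆mut-p53 4 over AAV-∆mut-p53 5, as a ratio of CPM on a log axis for each gene, with 95% intervals that cover counting error only. The ratios run from 2.14 for Herc6 to 31.5 for Usp18.

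AAV-∆mut-p53 4 and 5, the 2 samples with a shared number in their titles, differed beyond counting error for each of the 10 genes. Tumour 4 was higher for all 10. The share of all genes that differed in this way was not computed. Pathway genes outside the 10 did so in both directions, with Ifnar1 at 0.479 times (0.445 to 0.516) and Stat2 at 4.48 times (4.07 to 4.94) in tumour 4. Usp18 was 31.5 times as high in tumour 4 as in tumour 5 (95% counting interval 24.6 to 41.1), Ifit1 18.01 times (15.6 to 20.9) and Isg15 16.8 times (12.7 to 22.8). Rsad2 was 3.55 times (3.10 to 4.07) and Herc6 2.14 times as high (1.88 to 2.45). These are 2 libraries with no replicate of either, and the intervals do not cover the spread between tumours.

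RefSeq promoter windows of the GRCm38.p6 build, from 250 bases before to 50 bases after a start, were matched by symbol for 7 of the 10 genes. They are shown because ISGF3 is known to bind the response element, and binding in these tumours was not measured. The 10 genes were chosen by name as interferon-stimulated, so their share of windows with this element is described and not tested. The core of that element, written GAAA, any 2 bases, GAAA and searched on both strands, was in 5 of the 8 windows of these genes and in 3.44% of 32851 windows. It was in the windows of Ifit1, Ifit3, Ifit3b, Isg15 and Rsad2 and in neither of the 2 of Ifit2 nor that of Herc6. A longer core, the same letters followed by CT, was in 3 of the 8, those of Ifit1, Ifit3 and Ifit3b, and in 0.27% of all windows. Each stretch runs 5′ to 3′ on the gene's strand from 200 to 31 bases before the start, with matches to the shorter core on either strand in capitals (a match on the opposite strand reads TTTC, 2 bases, TTTC).
Ifit1 (chr19:34640689-34640858, plus strand): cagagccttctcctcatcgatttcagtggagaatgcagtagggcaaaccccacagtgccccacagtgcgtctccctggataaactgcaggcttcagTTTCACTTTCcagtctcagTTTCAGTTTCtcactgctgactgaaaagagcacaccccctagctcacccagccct
Ifit3 (chr19:34583329-34583498, plus strand): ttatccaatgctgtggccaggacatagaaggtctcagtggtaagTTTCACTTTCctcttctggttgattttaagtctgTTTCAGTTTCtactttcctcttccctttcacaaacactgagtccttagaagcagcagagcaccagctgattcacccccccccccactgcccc
Ifit3b (chr19:34607757-34607926, plus strand): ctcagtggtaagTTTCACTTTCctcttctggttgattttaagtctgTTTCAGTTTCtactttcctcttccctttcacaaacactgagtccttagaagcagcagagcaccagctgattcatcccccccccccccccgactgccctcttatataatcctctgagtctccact
Isg15 (chr4:156200849-156201018, minus strand): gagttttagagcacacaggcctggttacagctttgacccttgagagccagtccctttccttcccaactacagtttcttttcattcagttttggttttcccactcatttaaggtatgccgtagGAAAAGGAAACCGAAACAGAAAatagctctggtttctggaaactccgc
Rsad2 (chr12:26456483-26456652, minus strand): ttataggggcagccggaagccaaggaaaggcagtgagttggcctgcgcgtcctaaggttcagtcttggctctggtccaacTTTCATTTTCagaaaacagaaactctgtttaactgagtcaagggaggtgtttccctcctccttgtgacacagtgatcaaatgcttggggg
Ifit1, Ifit3 and Ifit3b each hold 2 matches, Isg15 holds 3 that overlap in one run, and Rsad2 holds 1. The Ifit3 and Ifit3b stretches share the same pair of matches. Rsad2, with a match, had the second-smallest log2 fold change of the 10, and Herc6, with none, had one of 1.82. A match describes letters only.

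**Figure D4:**
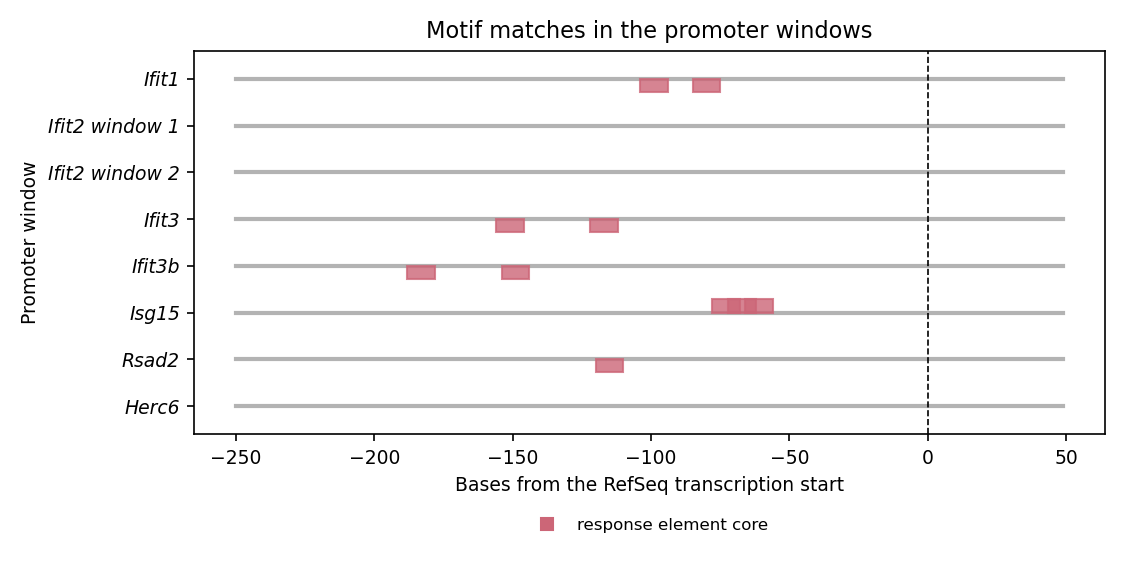
Positions of the core matches in the promoter windows of the members, as distance from the start in bases, for the 8 windows of 7 genes, drawn above the line for the gene's strand and under it for the other. Matches to the core GAAA, any 2 bases, GAAA sit in 5 windows.

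The ligands that act upstream were near the limit of detection. Of 20 type I and type III interferon genes, 12 had 0 counts in all 9 tumours, where 3 counts, the limit that a count of 0 allows, correspond to 0.1001 to 0.167 CPM per tumour. Ifnk, a keratinocyte interferon, had the most, 97 counts over all tumours, with a log2 fold change of 0.37. Ifna13 came next with 19 counts, of which 7 were in AAV-Control 3, 5 in AAV-∆mut-p53 3 and 0 in AAV-∆mut-p53 6. Ifnb1, the interferon most cells release first, had 9 counts over all tumours. Of these, 4 were in AAV-∆mut-p53 3, 2 in AAV-∆mut-p53 4 and 1 each in AAV-Control 3 and AAV-∆mut-p53 2 and 6. Ifng, interferon gamma, had 4 counts in AAV-Control 1 and 7 in AAV-∆mut-p53 2. Of 7 genes that interferon gamma is known for inducing, 6 had a higher mean, with a median log2 fold change of 1.41. H2-Aa, H2-Ab1 and H2-Eb1, which encode MHC class II chains, reached an unadjusted p under 0.05 in edgeR as higher, and none of the 7 passed the FDR. The summed level of the 7 was 131 to 227 CPM in the controls and 228, 1018, 259, 540, 133 and 892 CPM in AAV-∆mut-p53 1 to 6. The 4 highest tumours of this sum were those of the effectors, tumour 3 by little over tumour 1 and AAV-Control 2. Of the 7 genes, 3 had these 4 tumours highest: Cxcl9, H2-Ab1 and H2-Eb1.

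Receptors and signalling genes differed from each other. None of the 6 receptor genes reached an unadjusted p under 0.05, with a median log2 fold change of 0.38. Among the kinase and ISGF3 genes, Tyk2 at 1.13, Stat2 at 1.65 and Irf9 at 1.505 on the log2 scale did so as higher, and Jak1 at 0.07 and Jak2 at -0.31 did not. Stat2 was at 38.9, 22.1 and 16.9 CPM in the controls and at 22.3, 133, 111, 107, 23.8 and 91.5 CPM in AAV-∆mut-p53 1 to 6, with the same 4 tumours highest as for the effectors. All 5 interferon regulatory factor genes had a higher mean, with a median log2 fold change of 0.91 and Irf3 at 0.10. Of the 5, only Irf7 reached an unadjusted p under 0.05 in edgeR. Irf7, the factor that amplifies interferon production, had a log2 fold change of 2.73. It was at 36.05, 22.3 and 12.3 CPM in the controls and 12.8, 155, 273, 303, 11.5 and 186 CPM in AAV-∆mut-p53 1 to 6. None of the genes of these lists passed an FDR of 0.05 in edgeR.

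The fold changes of the ISG15 pathway were not uniform. Uba7, which activates ISG15, and Trim25, a ligase that can attach it, had log2 fold changes of 1.59 and 1.18 and reached an unadjusted p under 0.05 in edgeR. Ube2l6, the conjugating enzyme, was at 0.06 and Arih1, another ligase, at -0.15. Ube2l6 was at 12.9, 10.4 and 36.9 CPM in the controls, where AAV-Control 3 was well above the others. In AAV-∆mut-p53 1 to 6 it was at 8.81, 41.3, 24.0, 23.0, 6.46 and 22.2 CPM, with tumours 1 and 5 below every control. Of the 5 feedback inhibitors, Socs3 at 1.37 and Ptpn6 at 0.84 reached that level as higher, and Socs1, Pias1 and Ptpn2 did not. Of 22 other interferon-stimulated effectors, 21 had a higher mean, with a median of 1.61, and 15 reached it as higher.

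**Figure D5:**
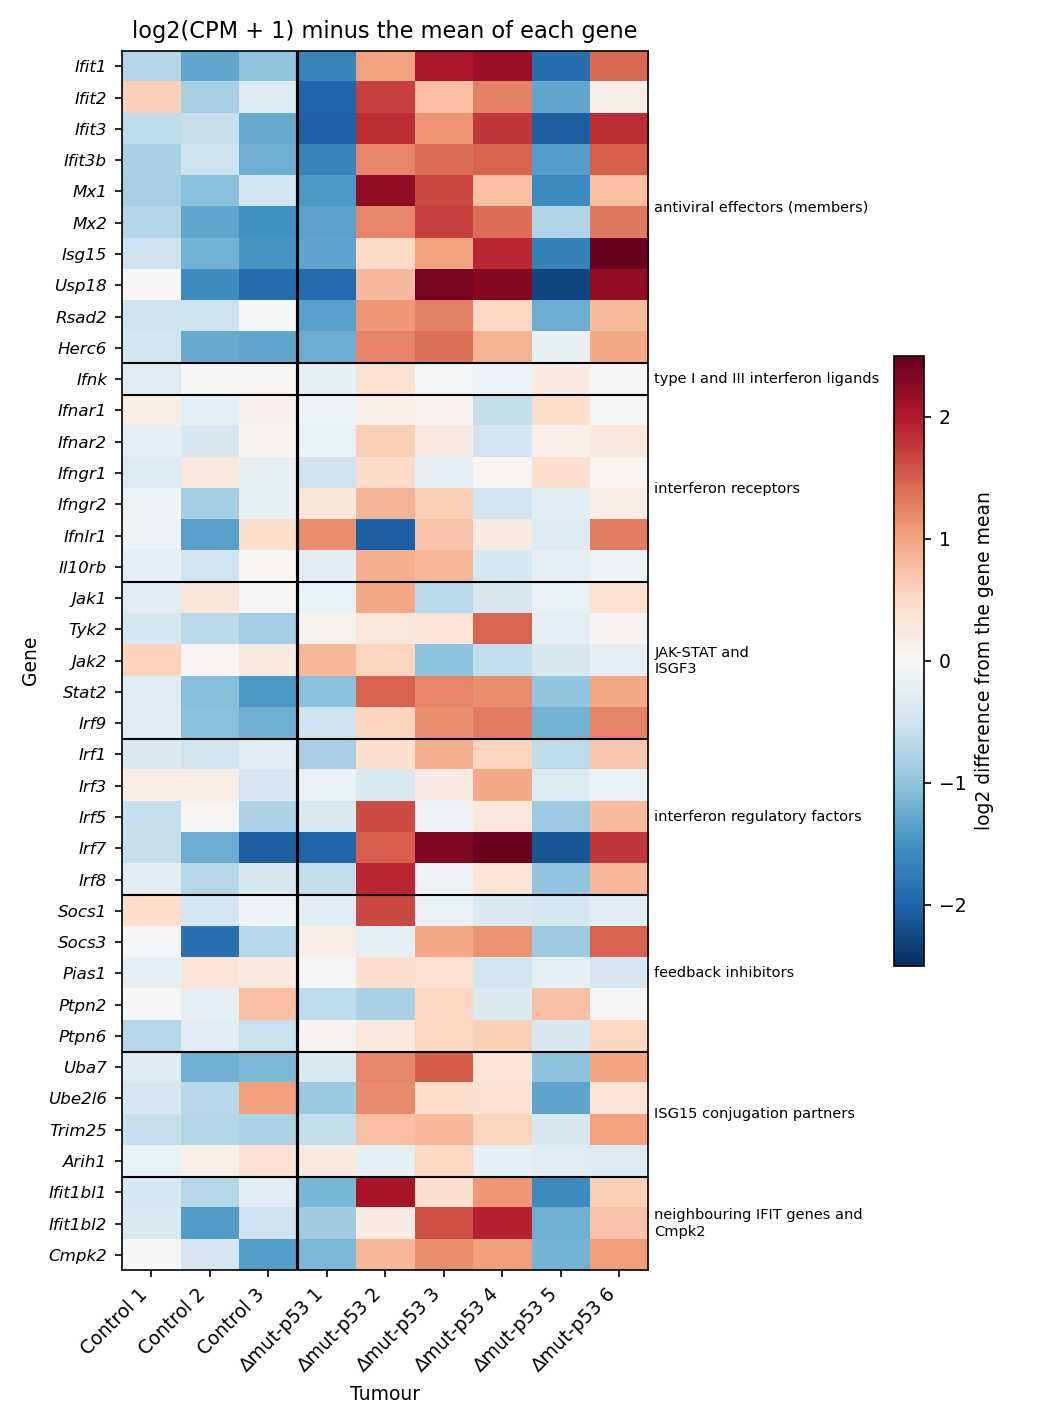
Log2(CPM + 1) of the 10 genes and of pathway genes in each tumour, centred per gene, with colour held at 2.5 either way. Stat2, Irf9 and Irf7 are high in AAV-∆mut-p53 2, 3, 4 and 6, while no receptor gene has these 4 tumours highest.

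Among 13887 genes compared by their centred log2 profile over the 9 tumours, the mean profile of the 10 effectors was most like that of Xaf1, Lgals9, Lgals3bp, Irgm2 and Trim34a, with root mean square differences of 0.316, 0.334, 0.380, 0.384 and 0.385. Stat2 and Ifi44 followed at 0.402 and 0.407, and the median gene was at 1.51. Xaf1, a gene that promotes cell death, was at 62.6, 35.9 and 29.2 CPM in the controls and at 22.7, 161, 327, 200, 17.9 and 276 CPM in AAV-∆mut-p53 1 to 6.

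Library totals ran from 18581545 to 30953250 counts. AAV-∆mut-p53 2 stood apart: a skeletal muscle list summed to 37413 CPM there, 20.8 to 329 in the other AAV-∆mut-p53 tumours and 45.4 to 131 in the controls. A mammary epithelium list summed to 181 CPM there, 1303 to 5041 in the other AAV-∆mut-p53 tumours and 1424 to 2080 in the controls. Ptprc, the pan-leukocyte marker CD45, was at 432 CPM in that tumour and from 34.0 to 111 in the other AAV-∆mut-p53 tumours, against 36.1 to 85.4 in the controls, so that tumour 2 was high for leukocytes as well as for the effectors. All 7 genes of a macrophage list had a higher mean, and their sum was 452 to 683 CPM in the controls and 487, 2640, 687, 709, 305 and 1181 CPM in AAV-∆mut-p53 1 to 6. The 4 tumours highest for the effectors were thus also highest for this sum, tumours 3 and 4 by little over AAV-Control 3. Of the 7 genes, 3 had these 4 tumours highest: C1qa, C1qb and C1qc. C1qa was at 222 and 228 CPM in tumours 3 and 4 and at 105 to 143 CPM in the controls. Mrc1 went the other way, at 79.8 and 46.9 CPM in tumours 3 and 4 and 208 CPM in AAV-Control 3. Other immune lists did not follow the effectors. A T cell list was highest in AAV-∆mut-p53 5 at 41.0 CPM and lowest in AAV-∆mut-p53 3 at 2.98, against 7.09 to 34.8 in the controls. No tested gene of the leukocyte, dendritic cell, neutrophil, T cell, NK cell or B cell lists had the 4 effector-high tumours highest. The part of any of these cell types in the effector levels was not tested. Without AAV-∆mut-p53 2 the median log2 fold change of the 10 effectors was 1.87. AAV-∆mut-p53 3 and 4 held the highest summed effector levels, with Ptprc within the control range at 81.4 and 77.1 CPM. Their C1qa, C1qb and C1qc were above every control, and the part of leukocytes in the effector levels was not tested. Trp53, the gene the treatment is labelled for, was at 48.6, 39.3 and 42.3 CPM in the controls and at 13.1, 22.0, 39.0, 37.8, 40.9 and 41.5 CPM in AAV-∆mut-p53 1 to 6 (log2 fold change -0.42, edgeR FDR 0.780). The lowest Trp53 was in AAV-∆mut-p53 1, where the effectors were low, and the next in AAV-∆mut-p53 2, where they were high; these counts do not show whether an allele was edited.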

How the data were processed

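Total RNA from 9 flash-frozen tumours was made into strand-specific libraries, per the labels' protocols. The authors deposited raw counts per gene, with no normalization. The submitters' processing notes name STAR 2.6.0b, DESeq2 and GRCm38, without roles. The program that counted reads, whether it used strand, and the annotation release were not given in the sources used here. Symbols and positions came from GENCODE M21, which matched 49326 of 49585 identifiers. Groups came from the treatment label. Counts were filtered with filterByExpr (minimum count 10), scaled by TMM and tested with the quasi-likelihood test of edgeR 4.0.16 (R 4.3.3), 6 AAV-∆mut-p53 against 3 AAV-Control tumours with no covariate, and Benjamini-Hochberg FDR over all 19606 tested genes. CPM uses TMM library sizes; log2 profiles used a prior count of 2, and the exact permutation test a pseudocount of 1. Alternatives were DESeq2 1.42.0, limma 3.58.1 voom with sample quality weights, other filters and scalings, the 2 samples with a shared title number summed, and leaving out each tumour. The members, gene lists and rule for named genes were chosen with earlier results of these data known. Genes named are the members, list genes needed to describe their list, Trp53, and the 8 genes of at least 1 CPM whose centred log2 profile differed least (root mean square) from the members' mean; neighbours and marker genes were named after their values were seen. Some genes are not reported here. Member proteins were not compared, and transcripts were aligned instead. Depth sets the precision: the members had 40 to 3663 counts per tumour.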

Additional observations from a re-analysis of the deposited data

Results flagged for a closer look

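A value was picked out where the highest or lowest of the 6 AAV-∆mut-p53 tumours lay far from the nearest other, relative to the range of the group on the log2(CPM + 1) scale. Of 81 results examined 6 were picked out, where chance alone picks about 1 in 20, and none of the 10 effectors was among them. Tyk2, the receptor kinase, was at 98.3 CPM in AAV-∆mut-p53 4, where the next tumour was at 44.4. In AAV-∆mut-p53 2, Socs1, a feedback inhibitor of JAK kinases, was at 4.39 CPM (next 0.537). Ido1, a tryptophan-degrading enzyme, was at 6.10 CPM in the same tumour (next 0.558). The skeletal muscle list summed to 37413 CPM there (next 329). The plasmacytoid dendritic cell list summed to 108 CPM there (next 5.66), of which Cox6a2, also a muscle gene, gave 99.1. The conventional dendritic cell list summed to 83.7 CPM in AAV-∆mut-p53 6 (next 40.4), of which Itgax gave 77.5.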

How the results depend on the processing

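None of the 10 effectors passed an FDR of 0.05 in the reported fit or in any of the 18 alternatives, and the smallest FDR was 0.0813. Of 180 fold changes of single effectors under alternatives, 179 kept their sign; the exception was Ifit2, at -0.34 in limma voom with sample quality weights. The number at an unadjusted p under 0.05 was 5 as reported, 8 with DESeq2, 8 with no filter on low counts, 8 with the 2 samples that share a title number summed and 0 in limma voom. Leaving out 1 tumour gave 2 to 8: 2 without AAV-Control 2, AAV-Control 3 or AAV-∆mut-p53 4, 3 without AAV-Control 1, AAV-∆mut-p53 3 or AAV-∆mut-p53 6, and 8 without AAV-∆mut-p53 1 or 5. The percentage of all genes at that level was 7.07, and 4.24 to 10.3 with 1 tumour left out. It was 10.2 with DESeq2, 6.89 with no filter on low counts, 8.72 with those 2 samples summed and 10.4 in limma voom. The median log2 fold change was 2.002, 1.84 to 2.25 with 1 tumour left out and 1.03 in limma voom. Over all genes, 1387 of 19606 tested were at that level, 2443 of 35482 with no filter on low counts and 874 of 20625 without AAV-Control 2. Of all genes, 0 passed the FDR in edgeR and 104 in DESeq2. Ranked by CPM without division by length, Isg15 was 7 in the AAV-∆mut-p53 group (1 per kilobase) and 8 in the controls (5), and Herc6 was 6 in both (10 and 9). These changes of rank follow from the division itself, as the merged exons span 756 bases for Isg15 and 9292 for Herc6. The cause of the other changes was not tested. No paired analysis was possible because the labels number no replicates; the numbers used here only name tumours, and nothing ties equal ones to an animal or batch. The lowest count of a member in a tumour was 40, so depth limits the ligands, mostly at 0, more than the members.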

Other observations

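Within 100000 bases of the 10 effectors, 23 genes outside the lists used here were tested; this look at neighbours was chosen after the values had been seen. Of these, 16 had a higher mean, with a median log2 fold change of 0.14. Lipa, a lysosomal lipase gene next to the IFIT cluster, had means of 86.2 CPM in the controls and 94.7 in the AAV-∆mut-p53 tumours. Agrn, the agrin gene beside Isg15, had a mean of 236 CPM in both groups. Bace2, beside the Mx genes, had a log2 fold change of 1.83 with an unadjusted edgeR p of 0.140.

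Ifit1bl1, Ifit1bl2 and Cmpk2, the last next to Rsad2, had log2 fold changes of 1.63, 2.23 and 1.15, with the 4 highest values in AAV-∆mut-p53 2, 3, 4 and 6; none reached an unadjusted p under 0.05 in edgeR. Isg20, an exonuclease gene, was the 1 of 22 other interferon-stimulated effectors without a higher mean, at -0.02 on the log2 scale.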
